A study of Mus musculus with 14 samples.

Results

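The genes described here are 42 genes of S phase and mitosis, the stages of the cell cycle in which DNA is copied and chromosomes are separated; genes of the MCM helicase are not among them. They were taken from a named list and found by symbol in a table of 54532 mouse genes. All 42 had an entry and all 42 passed the filter on low counts that left 15915 genes tested. By known function 17 act in S phase or in the entry to it, 24 act in G2 and mitosis, and 1, Stmn1, a regulator of microtubules, was kept apart.

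RNA of sorted mouse submandibular gland cells was sequenced in 14 libraries of 4 groups. All mice were adult and carried 1 TertCreERT2 allele, a tamoxifen-inducible Cre recombinase at the gene of telomerase reverse transcriptase, and 1 Rosa26LSL-tdTomato allele, a reporter that Cre switches on; the tamoxifen schedule and the number of animals behind a library are not given in the sources used here. Live cells stained for the epithelial surface protein EpCAM were sorted by reporter, tdTomato-positive cells being called Tert+ and tdTomato-negative cells Tert-. The groups were Tert+ without radiation (no RT, n = 3), Tert- without radiation (n = 3), Tert+ after 15 Gy (RT, n = 4) and Tert- after 15 Gy (n = 4). How long after RT the cells were sorted is not stated in the sources used here. Groups follow the sample titles; a separate cell type field names the other population in 14 of 14 libraries, so every direction between Tert+ and Tert- rests on the titles. Nothing in the labels ties replicates to different mice; the p-values below therefore speak of library-to-library spread, which may be technical.

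S phase genes are switched on late in G1, when cyclin-dependent kinases release E2F transcription factors from the retinoblastoma protein family. Their products make nucleotides, load and fire replication origins and copy DNA. Genes of G2 and mitosis come on later, through the MuvB complex with B-MYB and FOXM1, and in resting cells the DREAM complex represses both sets; in mitotic genes it does so through a promoter element called CHR, which often lies near CCAAT boxes bound by NF-Y. The RNAs of such genes are widely used as a measure of how many cells in a population are dividing.

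The promoters of 5 genes on which the results below turn are shown from RefSeq, build GRCm38.p6, which has the same coordinates as mm10. Each is read on the gene's own strand from 250 bases before to 50 after the start of that promoter entry. Capitals mark matches, on either strand, to 3 motifs. An E2F core was searched as TTCCCGC and, in its other forms, as TTGGCGC, further as TTCGCGC and lastly as TTGCCGC. A CHR was searched as TTTGAA or, in its other form, as TTCGAA, and a CCAAT box as CCAAT. On the opposite strand the first E2F core reads GCGGGAA and the CCAAT box reads ATTGG. Pclaf and Cdca7 are the S phase genes called in both cell populations, Mki67 and Ccnb2 are mitotic genes that were lower after RT, and Cenpa is the mitotic gene that was higher.
Pclaf (chr9:65890073-65890372, plus strand): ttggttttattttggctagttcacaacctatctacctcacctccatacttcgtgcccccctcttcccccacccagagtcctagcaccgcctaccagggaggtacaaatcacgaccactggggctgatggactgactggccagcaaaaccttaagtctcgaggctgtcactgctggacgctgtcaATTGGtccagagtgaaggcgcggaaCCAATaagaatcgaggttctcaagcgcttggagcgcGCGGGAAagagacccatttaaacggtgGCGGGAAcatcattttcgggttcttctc
Cdca7 (chr2:72475969-72476268, plus strand): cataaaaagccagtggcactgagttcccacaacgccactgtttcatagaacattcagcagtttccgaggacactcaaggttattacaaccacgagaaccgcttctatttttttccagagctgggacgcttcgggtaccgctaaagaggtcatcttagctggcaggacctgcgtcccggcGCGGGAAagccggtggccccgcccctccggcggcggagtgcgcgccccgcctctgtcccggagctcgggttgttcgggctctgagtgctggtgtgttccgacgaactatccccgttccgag
Mki67 (chr7:135716330-135716629, minus strand): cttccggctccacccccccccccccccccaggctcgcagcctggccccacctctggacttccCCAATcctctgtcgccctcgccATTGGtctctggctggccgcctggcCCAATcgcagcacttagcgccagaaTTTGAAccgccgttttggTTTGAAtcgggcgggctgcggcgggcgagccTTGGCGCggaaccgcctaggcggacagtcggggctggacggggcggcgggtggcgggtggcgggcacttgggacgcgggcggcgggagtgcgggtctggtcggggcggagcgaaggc
Ccnb2 (chr9:70421505-70421804, minus strand): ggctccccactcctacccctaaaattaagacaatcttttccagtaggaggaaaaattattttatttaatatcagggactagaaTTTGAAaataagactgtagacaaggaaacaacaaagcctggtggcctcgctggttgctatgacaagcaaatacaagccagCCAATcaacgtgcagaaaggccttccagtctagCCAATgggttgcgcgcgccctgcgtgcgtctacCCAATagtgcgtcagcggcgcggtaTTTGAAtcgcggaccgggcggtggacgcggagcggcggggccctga
Cenpa (chr5:30666636-30666935, plus strand): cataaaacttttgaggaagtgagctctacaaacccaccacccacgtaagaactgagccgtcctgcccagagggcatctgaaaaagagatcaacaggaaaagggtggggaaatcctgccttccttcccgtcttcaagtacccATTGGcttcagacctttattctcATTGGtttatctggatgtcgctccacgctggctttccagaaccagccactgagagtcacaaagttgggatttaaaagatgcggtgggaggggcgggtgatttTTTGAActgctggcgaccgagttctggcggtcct

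Promoter sequence was at hand for 35 of the 42 genes, 15 of S phase and 20 of mitosis; Gins2, Ccne2, Ccna2, Aurkb, Tpx2, Kif20a and Stmn1 had no entry. An E2F core occurred in 8 of the 15 S phase promoters (53.3%), in 3 of the 20 mitotic ones (15.0%) and in 9.57% of 32851 mouse promoters of the same length. A CHR occurred in 2 of 15 S phase promoters (13.3%) and in 16 of 20 mitotic ones (80.0%), against 19.2% of all. A CCAAT box occurred in 6 of 15 (40.0%) and 18 of 20 (90%), against 37.4% of all. Both a CHR and a CCAAT box were found in 80.0% of the mitotic promoters, 6.67% of those of S phase and 7.52% of all. The Cenpa promoter holds 1 CHR and 2 CCAAT boxes, so in these letters it resembles those of Mki67 and Ccnb2, with 2 CHR and 3 CCAAT boxes each. Among the 97 matches in the 35 promoters, 2 pairs of matches to different motifs overlapped, in Ccnb1 and in Cdca8. The start of the promoter entry lay 2394 bases from the gene start listed with the counts for Cdca8, 629 for Cdca3, 466 for E2f1 and 350 for Cdc6. Those windows do not reach that gene start. For the other genes the distance was at most 224 bases (Fen1). A match is a description of the sequence and was not tested as a binding site.

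Total counts ran from 9220126 to 15943597 in the libraries without RT and from 5520412 to 11642156 after RT, so 3 counts correspond to 0.19 to 0.544 CPM (counts scaled to a common library size). All levels are in CPM, with library sizes scaled by the TMM method. The labelled gate was EpCAM-positive. Epcam ran from 29.7 to 126 CPM, while Cd79a, part of the B cell receptor, ran from 2130 to 3920 CPM. Mucl2, a salivary acinar gene, ran from 288 to 81800 CPM and Klk1, a kallikrein of the granular ducts, from 544 to 13100 CPM. Tert itself had 0 to 8 counts in Tert+ and 13 to 28 in Tert- libraries without RT, and 0 to 52 and 0 to 15 after RT. In such bulk samples, fewer dividing cells and less RNA of a gene in each cell cannot be told apart.

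Without RT both sets of genes were present in every group, at unequal levels. Per kilobase of gene length, the mean over the 6 libraries without RT was 50.27 CPM per kb for Pcna, the sliding clamp of DNA polymerase, and 26.16 for Cdt1, which loads the replicative helicase. Stmn1 had 20.52, Cdc20, an activator of the anaphase-promoting complex, 15.96, Cdca7, a DNA-binding protein of chromatin remodelling, 15.72, and the B-type cyclin Ccnb2 11.81 CPM per kb. After RT the order changed: Pcna (46.92) and Cdt1 (28.38) still led, Cenpa, the centromeric histone H3 variant, followed with 25.05 CPM per kb, and Cdc20 and Ccnb2 stood at 3.843 and 1.049. Of the 42 genes, 36 passed the low-count filter both on the RT libraries alone and on the libraries without RT alone. The other 6, Mki67, Ccna2, Plk1, Bub1, Ube2c and Kif11, all mitotic, passed only through the libraries without RT, so that a lower level after RT was a condition of their being tested.

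**Figure D1:**
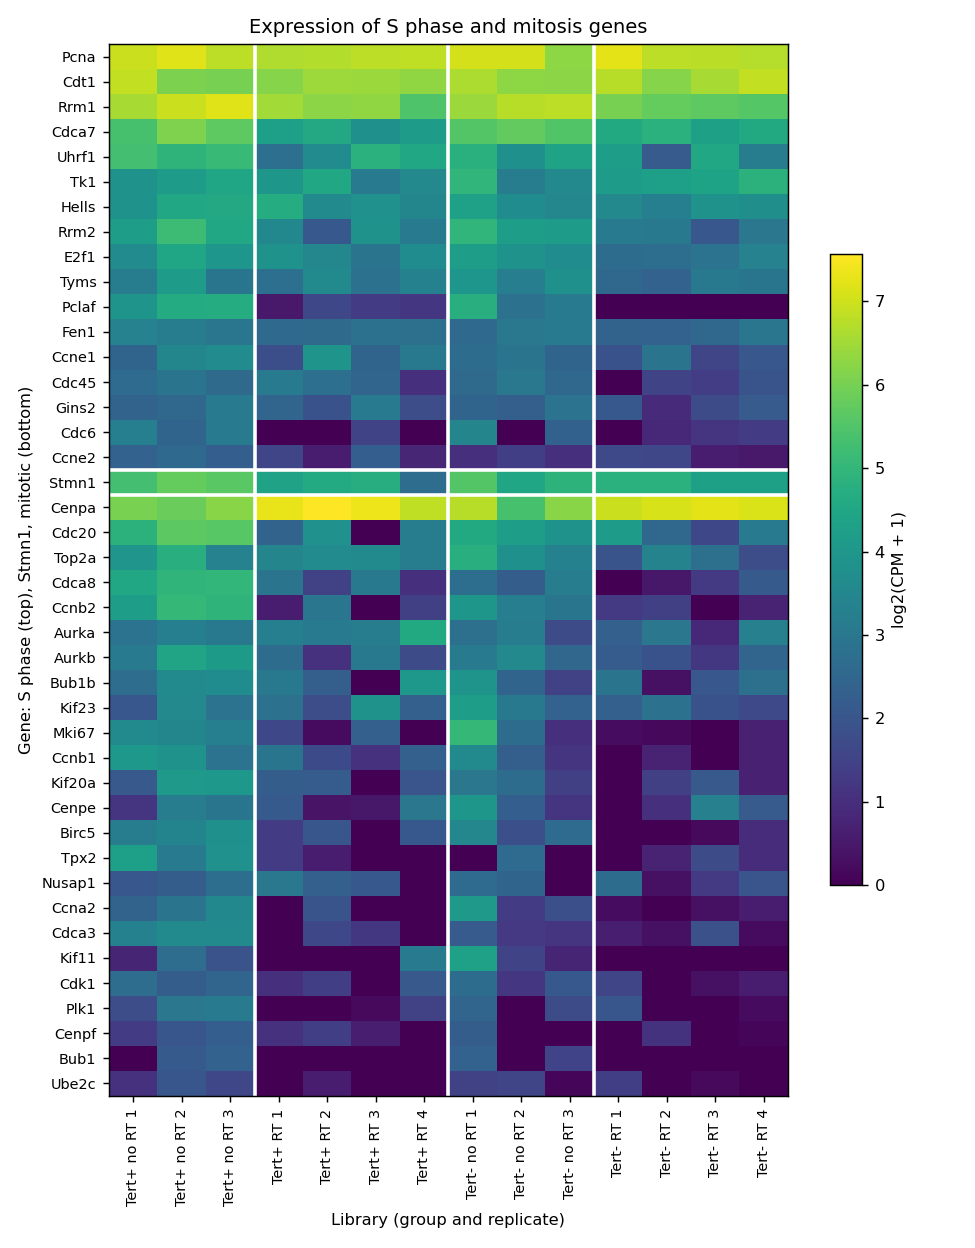
Level of each of the 42 genes (rows, S phase above, Stmn1 between the white lines, mitotic below) in each of the 14 libraries (columns), as log2(CPM + 1). Darker cells fill the mitotic rows of the RT columns, while Pcna, Cdt1 and Cenpa stay bright in every column.

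RT against no RT was examined within each cell population and as the mean of both. In the mean of both, 16 of the 42 genes were lower after RT and 1 was higher at an adjusted p of 0.05, and 25 did not pass. That is 38.1% of the members called lower, while 7% of all 15915 genes were called lower and 6.36% higher in this comparison, 13.4% in all. The genes that were lower were Pclaf, Cdca7, Rrm1, Rrm2 and E2f1 of S phase, Ccnb2, Mki67, Ccnb1, Birc5, Cdca8, Bub1, Ccna2, Aurkb, Cdc20 and Top2a of mitosis, and Stmn1. Cenpa was the gene that was higher. Of the 36 genes that passed the filter in each state, 13 were lower and 1 higher. Within single populations fewer passed: in Tert+ 2 lower (Pclaf, Cdca7) and 1 higher (Cenpa), where 0.873% of all genes were called lower and 1.11% higher, and in Tert- 2 lower (Pclaf, Cdca7) and 0 higher, where 0.804% of all genes were called lower and 0.817% higher. In either direction 1.98% of all genes were called in Tert+ and 1.62% in Tert-. The fold change was below 0 for 40 of 42 genes in Tert+, 37 of 42 in Tert- and 38 of 42 in the mean of both, against 50.1%, 50.8% and 50.6% of all genes. Among the 36 genes that passed the filter in each state it was below 0 for 34, 31 and 32. At an unadjusted p of 0.05, 17 genes were lower and 1 higher in Tert+ and 16 lower and 1 higher in Tert-, where 9.29% and 10.2% of all genes were lower and 8.68% and 8.6% higher at that level. Of the 36 genes, 13 were lower and 1 higher at that level in Tert+, and 12 lower and 1 higher in Tert-. Every RT library lay below every library without RT for 20 of the 42 genes in Tert+ and 16 in Tert-, against 8.25% and 9.22% of all genes, and above for 1 (Cenpa) in each, against 7.28% and 9.7%. The 20 include Mki67, Ccna2, Plk1 and Ube2c, and the 16 include Mki67, Ccna2 and Kif11. These named genes passed the filter only through the libraries without RT. Over both populations together 3 genes (Pclaf, Rrm2, Cdca7) lay fully below and 1 (Cenpa) fully above, against 1.33% and 1.82% of all genes. These counts moved with single libraries: the 3 calls in Tert+ became 0 without Tert+ no RT replicate 2 and 1 without replicate 3, and the 17 in the mean of both became 11 without either of these. The share of all genes called moved too. In those fits it was 0.131% and 0.125% in Tert+, and 7.21% and 7.35% in the mean of both. The 2 calls in Tert- became 4 without Tert- no RT replicate 1, 5 without Tert+ RT replicate 4, and 1 without any of 8 other libraries (Tert+ no RT replicates 2 and 3, Tert- no RT replicates 2 and 3, and each Tert- RT replicate). Of all genes, 5.4% and 1.92% were called in Tert- without the first and the second of these libraries. Without any of the 8 others the share was 0.105% to 1.15%. In the mean of both, Pclaf, Cdca7, Rrm1, Rrm2, Mki67, Ccnb1, Ccnb2, Birc5, Cdca8 and Cenpa kept their calls in all 14 such fits, as did Pclaf in Tert-. In Tert+ Pclaf kept its call in 12, Cdca7 in 13 and Cenpa in 10, and in Tert- Cdca7 kept its call in 6.

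Among the S phase genes, Pclaf, a PCNA-binding factor of replication and lesion bypass on chromosome 9 (65890237 to 65903266, plus strand, mm10), stood apart. Its level in Tert+ was 14, 24.1 and 24.7 CPM without RT and 0.436, 2.10, 1.5 and 1.28 CPM after RT. In Tert- it was 26.1, 6.03 and 7.56 CPM without RT, and no read was counted in any of the 4 RT libraries. All libraries without RT lay above all RT libraries. The log2 fold change was −4.0 ± 0.67 (SE) in Tert+ (edgeR adjusted p = 0.0162), and in Tert- the level was at least 143-fold lower, with 0 counts against 496 and the bound set at 3 counts over the group (edgeR adjusted p = 0.00375). Without Tert+ no RT replicate 2 or 3 the edgeR adjusted p in Tert+ was 0.0861 or 0.0819. Pclaf overlaps Trip4 on the other strand, which had 4678 counts without RT and 3476 after, and whether counting used strand is not given in the sources used here.

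Cdca7 fell in both populations. Its level in Tert+ was 40.3, 67.8 and 50.9 CPM without RT and 18.4, 22.8, 13.0 and 17 after RT. Tert- libraries had 45.5, 52.5 and 44.9 CPM without RT and 23.2, 27.6, 18.8 and 23.3 after RT. No RT library reached the lowest library without RT. The log2 fold changes were −1.58 ± 0.24 in Tert+ (edgeR adjusted p = 0.00923) and −1.04 ± 0.24 in Tert- (0.0410). Without Tert+ no RT replicate 2 the edgeR adjusted p in Tert+ was 0.0571, and in Tert- it ran from 0.0539 to 0.15 without any of the 8 libraries named above.

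The subunits of ribonucleotide reductase, which makes deoxynucleotides, were lower in the mean of both populations. Rrm1, the large subunit, had 94.7, 124 and 145 CPM in Tert+ and 84.4, 106 and 110 CPM in Tert- without RT. After RT it had 89.9, 74.7, 77.4 and 43.9 CPM in Tert+ and 63.5, 54.1, 50.8 and 46.6 CPM in Tert-. The groups did not overlap within either population, and the mean log2 fold change was −0.83 ± 0.16 (edgeR adjusted p = 0.00392). Rrm2, the small subunit, had 17.8, 35.0 and 22.1 CPM in Tert+ and 30.5, 17.7 and 16.6 CPM in Tert- without RT. After RT it had 10.5, 3.23, 13.8 and 7.70 CPM in Tert+ and 7.80, 7.39, 3.17 and 6.99 CPM in Tert-. Every library without RT was above every RT library, and the mean log2 fold change was −1.63 ± 0.32 (edgeR adjusted p = 0.00505), the larger of the pair.

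E2f1, a transcription factor that drives S phase genes, was 11.5, 20.6 and 14.8 CPM in Tert+ without RT and 13.5, 10.3, 6.55 and 11.7 after it, so these groups overlapped. In Tert- it was 17.5, 13.5 and 11.8 CPM without RT and 5.44, 5.71, 6.35 and 9.15 after RT, without overlap. Its mean log2 fold change was −0.83 ± 0.25 (edgeR adjusted p = 0.0414), a call that held in 4 of 14 fits that each left out a library. It was lost in the other 10, with edgeR adjusted p from 0.0634 to 0.135, and held without Tert+ no RT replicate 1, replicate 1 or 4 of Tert+ RT, or replicate 4 of Tert- RT.

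The most abundant S phase genes besides Rrm1 did not pass. Pcna was 122, 144 and 112 CPM in Tert+ and 134, 135 and 76.8 CPM in Tert- without RT. After RT it was 101, 102, 110 and 113 CPM in Tert+ and 151, 112, 109 and 104 CPM in Tert-, and its mean log2 fold change was −0.10 ± 0.14 (edgeR adjusted p = 0.678). Cdt1 was 116, 65.7 and 62.9 CPM in Tert+ and 97.2, 76.7 and 74.6 CPM in Tert- without RT. The values after RT were 72.2, 87.1, 84.9 and 78.6 CPM in Tert+ and 107, 72.0, 94.4 and 117 CPM in Tert-, with a mean log2 fold change of 0.11 ± 0.15 (0.689). Both genes' groups overlapped in both populations. The thymidine kinase Tk1 ran from 8.04 to 30.3 CPM without RT and from 7.51 to 28.2 after it. The other S phase genes that did not pass were Tyms, Uhrf1, Gins2, Cdc6, Cdc45, Ccne1, Ccne2, Fen1 and Hells. Of these, Cdc6, a loader of the replicative helicase, had no count in 4 of 8 RT libraries and in 1 of 6 without RT.

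**Figure D2:**
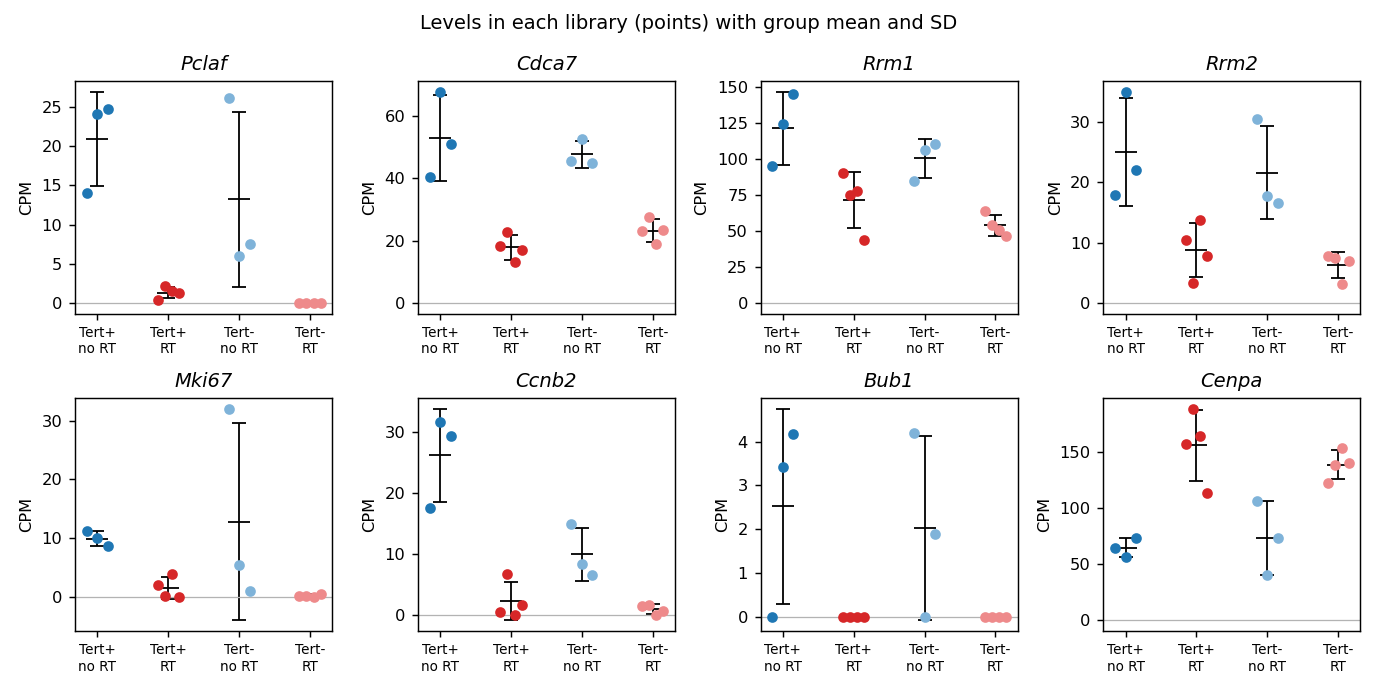
CPM of 8 genes in each library (points), with the group mean and SD (black), for Tert+ and Tert- without and after RT. Pclaf, Cdca7, Rrm2, Mki67 and Ccnb2 have lower means after RT in both populations, Bub1 is at 0 in all 8 RT libraries, and Cenpa lies at 40.0 to 106 CPM without RT and at 113 to 188 CPM after it.

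The mitotic genes moved over a wider range. Ccnb2, a partner of the mitotic kinase CDK1, was 17.5, 31.7 and 29.4 CPM in Tert+ without RT and 0.523, 6.79, 0 and 1.71 CPM after it. The Tert- values were 14.9, 8.39 and 6.61 CPM without RT and 1.45, 1.69, 0 and 0.690 after it. The groups did not overlap within a population, and the mean log2 fold change was −3.48 ± 0.73 (edgeR adjusted p = 0.00686).

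Ccnb1, the other B-type cyclin, was 15.3, 13.4 and 6.38 CPM in Tert+ without RT and 6.62, 2.26, 1.09 and 3.94 CPM after it. In Tert- it was 11.1, 3.85 and 1.26 CPM without RT and 0, 0.649, 0 and 0.604 CPM after it. The Tert+ groups overlapped through 1 library on each side and the Tert- groups did not, and the mean log2 fold change was −2.85 ± 0.68 (edgeR adjusted p = 0.0141).

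Mki67, which codes for the proliferation antigen Ki-67, was 11.2, 9.99 and 8.65 CPM in Tert+ without RT and 2.09, 0.162, 3.96 and 0 CPM after it. Tert- libraries had 32.0, 5.42 and 1.05 CPM without RT and 0.181, 0.130, 0 and 0.604 CPM after it. Tert- without RT replicate 1 was the highest of all libraries and the groups did not overlap within a population. The mean log2 fold change was −4.15 ± 0.92 (edgeR adjusted p = 0.00965). The cyclin Ccna2, which acts from S phase into mitosis, was 4.28, 6.45 and 10.5 CPM in Tert+ and 15.8, 1.49 and 2.62 CPM in Tert- without RT. In RT libraries the level was 0, 2.91, 0 and 0 CPM in Tert+ and 0.181, 0, 0.264 and 0.518 CPM in Tert-. The groups did not overlap within a population, and the mean log2 fold change was −4.0 ± 1.08 (0.0245). The edgeR adjusted p of Ccna2 was 0.0614 without Tert+ no RT replicate 3 and 0.071 without replicate 1 of Tert- no RT. Mki67 and Ccna2 passed the low-count filter only through the libraries without RT. A lower level after RT was thus a condition of their being tested. Ccna2 overlaps Exosc9 on the other strand, which had 3084 counts without RT and 2235 after. Other members overlap genes on the other strand as well. Among them are Cdc20 (Elovl1, 5420 counts without RT and 3726 after), Cdca8 (9930104L06Rik, 814 and 997) and Ccne2 (Ints8, 5341 and 5017).

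Bub1, a kinase of the spindle checkpoint, had no count in any of the 8 RT libraries. Without RT it had 0, 3.41 and 4.17 CPM in Tert+ and 4.20, 0 and 1.89 CPM in Tert-. Its 184 counts in the 6 libraries without RT make the level after RT at least 52.5-fold lower (edgeR adjusted p = 0.0231), while 2 of those 6 libraries were at 0 themselves. Without Tert+ no RT replicate 2 or 3 the edgeR adjusted p was 0.0535 or 0.0558. Bub1 too was tested only because of its level without RT, so its p-value carries the same condition.

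Birc5 and Aurkb of the chromosomal passenger complex, and its subunit Cdca8, were all lower in the mean of both populations. Birc5 (survivin) was 8.31, 9.61 and 12.8 CPM in Tert+ and 10.3, 2.62 and 5.25 CPM in Tert- without RT. After RT it was 1.48, 3.07, 0 and 3.25 CPM in Tert+ and 0, 0, 0.132 and 0.949 CPM in Tert-, with a mean log2 fold change of −3.32 ± 0.80 (edgeR adjusted p = 0.0148). The groups did not overlap within a population. Cdca8 (borealin) was 21.6, 29.8 and 31.2 CPM in Tert+ and 5.60, 3.67 and 8.19 CPM in Tert- without RT. RT libraries had 6.53, 1.78, 7.37 and 1.03 CPM in Tert+ and 0, 0.389, 1.45 and 3.45 CPM in Tert- (mean log2 fold change −2.39 ± 0.59, edgeR adjusted p = 0.0167). These groups did not overlap either, the Tert- ones being close. The kinase Aurkb was 7.45, 20.3 and 16.3 CPM in Tert+ and 7.88, 10.8 and 4.62 CPM in Tert- without RT. The values after RT were 5.4, 1.13, 7.37 and 2.31 CPM in Tert+ and 3.63, 2.72, 1.32 and 4.49 CPM in Tert- (−1.60 ± 0.44, edgeR adjusted p = 0.0273). Its groups lay next to each other with no overlap within a population. Its edgeR adjusted p was 0.0864 or 0.0677 without Tert+ no RT replicate 2 or 3, 0.0778 when replicate 2 of Tert- no RT was left out and 0.0526 when replicate 3 of Tert- RT was.

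Cdc20 was 27.9, 49.1 and 47.5 CPM in Tert+ without RT and 4.36, 13.1, 0 and 7.96 CPM after it. In Tert- it was 23, 17.9 and 13.4 CPM without RT and 17, 4.93, 2.12 and 7.94 CPM after it. The groups were apart in Tert+ and overlapped in Tert- through RT replicate 1, and the mean log2 fold change was −1.95 ± 0.58 (edgeR adjusted p = 0.0374). Top2a, the topoisomerase that untangles sister DNA, was 14.4, 25.8 and 9.18 CPM in Tert+ and 25.5, 12.8 and 9.03 CPM in Tert- without RT. After RT it was 9.85, 11.6, 11.2 and 8.30 CPM in Tert+ and 2.90, 9.47, 5.95 and 2.42 CPM in Tert-. Its groups overlapped in both populations, and its mean log2 fold change was −1.15 ± 0.36 (edgeR adjusted p = 0.0457). Stmn1 was 38.5, 54.2 and 48.7 CPM in Tert+ and 45.4, 21.1 and 28.8 CPM in Tert- without RT. Following RT it was 19.3, 23.6, 25.2 and 5.56 CPM in Tert+ and 27.2, 27.2, 18.5 and 18.6 CPM in Tert-, so its groups were apart in Tert+ and overlapped in Tert- (mean log2 fold change −0.92 ± 0.28, edgeR adjusted p = 0.0432). All 3 calls were near the threshold and were lost when single libraries were left out: Cdc20 in 9 of 14 fits (edgeR adjusted p 0.0572 to 0.0874, kept without Tert+ no RT replicate 1, Tert+ RT replicates 2, 3 or 4, or Tert- RT replicate 1), Top2a in 11 (0.0556 to 0.157, kept without Tert+ no RT replicate 3, Tert- no RT replicate 3 or Tert- RT replicate 2) and Stmn1 in 9 (0.0529 to 0.103, kept without Tert+ no RT replicate 1, Tert- no RT replicate 2, or Tert+ RT replicates 2, 3 or 4).

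Kif11, the motor that pushes spindle poles apart, missed the threshold (edgeR adjusted p = 0.0617 in the mean of both populations). Without RT it was 0.733, 5.56 and 2.81 CPM in Tert+ and 19.1, 1.92 and 0.735 CPM in Tert-. After RT all 87 of its counts came from Tert+ replicate 4, at 7.44 CPM, and the other 7 RT libraries were at 0. In Tert- the level after RT was at least 78.2-fold lower (edgeR adjusted p = 0.0955). Ube2c, a ubiquitin-conjugating enzyme of mitotic exit, had 3 counts in Tert+ after RT against 85 without, a ratio whose 95% counting interval spans 9.25-fold to 138-fold, and did not pass. Kif11 and Ube2c also passed the filter only through the libraries without RT. The mitotic genes that did not pass were Cdk1, Plk1, Aurka, Bub1b, Cenpe, Cenpf, Cdca3, Nusap1, Tpx2, Ube2c, Kif11, Kif20a and Kif23.

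Cenpa (chromosome 5, 30666777 to 30674830, plus strand, mm10) moved the other way. Its level in Tert+ was 64.4, 56.3 and 72.9 CPM without RT and 157, 188, 164 and 113 CPM after RT. The Tert- values were 106, 40.0 and 72.7 CPM without RT and 122, 138, 153 and 140 CPM after RT. All 8 RT libraries lay above all 6 libraries without RT. The log2 fold change was 1.27 ± 0.26 in Tert+ (edgeR adjusted p = 0.0269), 0.92 ± 0.26 in Tert- (0.0745) and 1.09 ± 0.18 in the mean of both (0.00192). In Tert+ the edgeR adjusted p was 0.121 or 0.0819 without Tert+ no RT replicate 2 or 3, and 0.0654 or 0.0601 without Tert+ RT replicate 2 or 3. Of 12 genes of CENP-A deposition and the inner kinetochore, 0 were called in the mean of both, against 13.4% of all genes, 9 having a fold change below 0 and 3 above. At an unadjusted p under 0.05 in edgeR, 2 of the 12 were lower. The share of all genes at that level is not given here, so these 2 are not read as a result. The most abundant of them were Hjurp, the chaperone of the Cenpa protein, at 8.48 to 52.9 CPM without RT and 10.8 to 42.8 CPM after it, and Mis18a, which licenses its deposition, at 15.5 to 32.4 and 11.8 to 20.0 CPM.

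**Figure D3:**
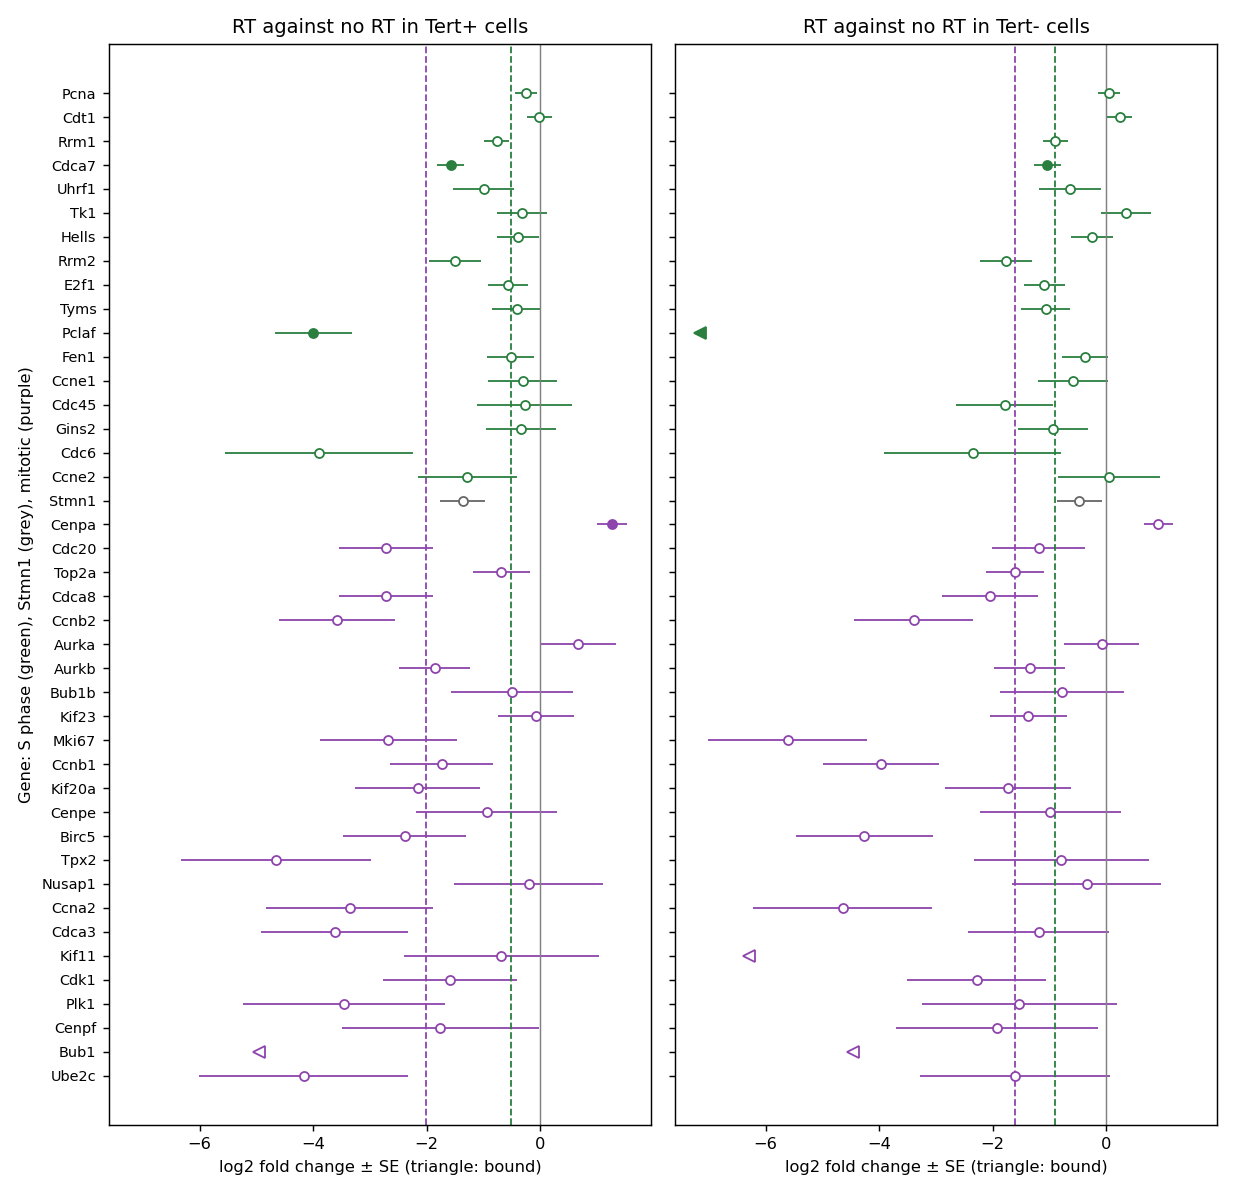
Log2 fold change of RT against no RT with its SE for each of the 42 genes in Tert+ (left) and Tert- (right), filled where the edgeR adjusted p was under 0.05. A triangle is the bound that 3 counts in the whole group allow, where no read was counted after RT, and dashed lines are the medians over S phase (green) and mitotic genes (purple), which lie at −0.52 and −2.01 in Tert+ and at −0.90 and −1.61 in Tert-.

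Set beside each other, the mitotic genes had the lower fold changes. The median log2 fold change after RT was −0.52 over 17 S phase genes and −2.01 over 24 mitotic genes in Tert+, −0.90 and −1.61 in Tert-, and −0.74 and −2.17 in the mean of both, against −0.0099 over all genes in that last comparison. All 17 S phase genes and 22 of 24 mitotic genes had a fold change below 0 in Tert+. In Tert-, 13 of 17 and 23 of 24 did. Called in the mean of both were 5 S phase genes lower, and 10 mitotic genes lower and 1 higher. Since 6 of the mitotic genes passed the filter only through the libraries without RT, and since lists are given here as counts and medians, the difference between the sets has no test. The difference of the medians in Tert-, 0.71, became 0.42 when replicate 1 of Tert- no RT was left out. It was 1.09 when replicate 3 of that group was, and 0.46 over the genes that passed the filter in each state. Medians over 26 further S phase genes and 34 further G2 and mitosis genes, described below, lay closer together. They were −0.35 and −0.57 in the mean of both, −0.37 and −0.59 in Tert+, and −0.28 and −0.42 in Tert-.

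The 17 S phase genes summed to 525 to 606 CPM in Tert+ and 424 to 556 CPM in Tert- without RT, and to 343 to 390 and 330 to 421 CPM after RT. The 23 mitotic genes without Cenpa summed to 189 to 299 CPM in Tert+ and 73 to 253 CPM in Tert- without RT, and to 58.4 to 93.3 and 37 to 52.6 CPM after RT. With Cenpa, the most abundant mitotic gene, included, the mitotic sums ran from 146 to 359 CPM without RT and from 175 to 258 CPM after it and overlapped. Of the 24 mitotic genes, 0 or 1 had no count in a Tert+ library without RT and 1 to 3 in a Tert- library, against 3 to 11 and 3 to 9 after RT, where libraries were also shallower. In Tert- without RT, replicate 1 was high in the mitotic genes, 253 CPM without Cenpa against 112 and 73 CPM in the others.

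Most markers of germinal centre B cells, a dividing type of B cell, fell with the same contrast. Of 9 such markers, 8 were called lower in Tert+, 5 in Tert- and 8 in the mean of both, with a median log2 fold change of −4.23 in the last. Of all genes, 0.873%, 0.804% and 7% were called lower in these comparisons. Of the 9, 3 passed the filter only through the libraries without RT, and of the other 6, 5 were called lower in Tert+, 3 in Tert- and 5 in the mean of both. Their summed level was 441 to 833 CPM in Tert+ and 318 to 379 CPM in Tert- without RT, and 151 to 194 and 164 to 219 CPM after RT. Of the 9, none was at 0 in any library without RT and 2 to 4 were at 0 in each RT library. Bcl6, a transcription factor that germinal centre B cells depend on, fell from 127 to 273 CPM to 83.1 to 109 CPM. The marker Neil1 went the other way in Tert-. There it had 68.7, 32.4 and 46.1 CPM without RT and 68.9, 63, 105 and 106 CPM after it. In Tert+ it had 86.6, 99.7 and 105 CPM without RT and 57.2, 86.6, 47.5 and 33.3 CPM after it. The summed level of 9 mature B cell markers ran from 8320 to 13600 CPM without RT and from 9660 to 12000 CPM after it, and 0 of the 9 were called. The 7 T cell markers summed to 183 to 588 CPM without RT and to 83.6 to 367 CPM after it, with 1 called lower. The part of these cell types in the fall of the S phase and mitotic genes was not tested.

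**Figure D4:**
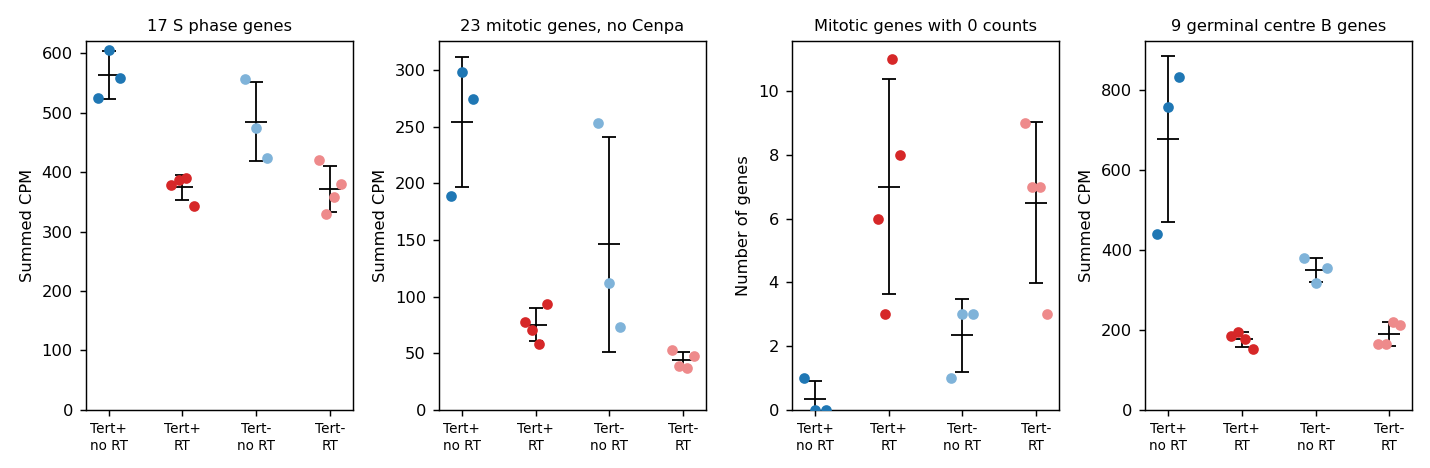
Per library (points, with group mean and SD), the summed CPM of 17 S phase genes, of 23 mitotic genes without Cenpa, the number of the 24 mitotic genes with no count, and the summed CPM of 9 germinal centre B cell markers. The S phase, mitotic and germinal centre sums are all lower in the 4 RT libraries of a population than in its 3 libraries without RT.

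Whether the RT response differed between Tert+ and Tert- was tested as the difference of the 2 fold changes. In edgeR 0 of the 42 genes passed, as did 0% of all genes, while DESeq2 called 1, against 0.0758% of all. At an unadjusted p under 0.05 in edgeR there were 2 of the 42, against 3.63% of all genes. The 2 were Pclaf (unadjusted p = 0.000895), which kept 44 counts in Tert+ after RT and none in Tert-, and Kif11 (unadjusted p = 0.0233), whose counts after RT came from 1 library. The edgeR adjusted p was 1 for both. Tpx2, an activator of Aurora A with the third lowest p, was 18.1, 7.65 and 13.1 CPM in Tert+ and 0, 5.24 and 0 CPM in Tert- without RT. RT libraries had 1.48, 0.485, 0 and 0 CPM in Tert+ and 0, 0.649, 2.38 and 0.949 CPM in Tert-.

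Tert+ against Tert- cells gave no call among the members in either state by edgeR. Without RT 34 of the 42 genes had a fold change above 0, against 50.8% of all genes, and 0 passed, against 0.0377% of all; 1 had an unadjusted p under 0.05, against 4.5% of all. After RT 29 of 42 were above 0, against 49.4% of all, and 0 passed, against 0.0126%. There 4 had an unadjusted p under 0.05, against 7.39% of all, and DESeq2 called 3, against 0.688% of all. In the mean of both states 0 passed, against 0.22% of all genes, while 4 had an unadjusted p under 0.05, against 8.24% of all. DESeq2 called 2 in that mean, against 1.02% of all. The median log2 fold change without RT was 0.21 over S phase and 0.58 over mitotic genes, and after RT 0.41 and 0.82. These medians share libraries with the RT comparisons above.

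Without RT the genes with the lowest p were Cdca8, Ccne2 and Cdca3. Cdca8, with the values above, was 2.24 ± 0.91 higher on the log2 scale in Tert+ and its groups did not overlap (edgeR adjusted p = 1; unadjusted p = 0.0252). Ccne2, a cyclin of S phase entry, was 4.15, 4.99 and 3.80 CPM in Tert+ and 1.03, 1.66 and 1.05 CPM in Tert- without RT, again apart. After RT it was 2, 0.485, 3.82 and 0.770 CPM in Tert+ and 2.18, 2.08, 0.529 and 0.431 CPM in Tert-, overlapping. Cdca3, a trigger of mitotic entry, was 8.92, 11 and 11 CPM in Tert+ and 3.53, 1.40 and 1.26 CPM in Tert- without RT. In RT libraries the level was 0, 2.10, 1.36 and 0 CPM in Tert+ and 0.544, 0.259, 2.64 and 0.173 CPM in Tert-. In total, 7 members had every Tert+ library above every Tert- library without RT (Uhrf1, Ccne2, Ccnb2, Cdc20, Cdca3, Cdca8 and Tpx2), and 0 the reverse, against 4.04% and 4.83% of all genes. Without RT 9 of 9 germinal centre B cell markers had a fold change above 0, with 0 called by edgeR and 4 at an unadjusted p under 0.05, and macrophage markers summed to 119 to 284 CPM in Tert+ and 1550 to 1900 CPM in Tert-; their part was not tested.

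After RT every Tert+ library was above every Tert- library for Pclaf and Ccnb1, and no member showed the reverse, against 2.43% and 2.46% of all genes. Pclaf had 44 counts in Tert+ and 0 in Tert-, at least 14.4-fold higher (edgeR adjusted p = 0.186). Ccnb1, with the values above, was 3.34 ± 0.98 higher on the log2 scale (0.386). Kif11 was at least 20.1-fold higher, from 1 library (0.605). In the mean of both states Pclaf came nearest to the threshold (edgeR adjusted p = 0.0588).

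**Figure D5:**
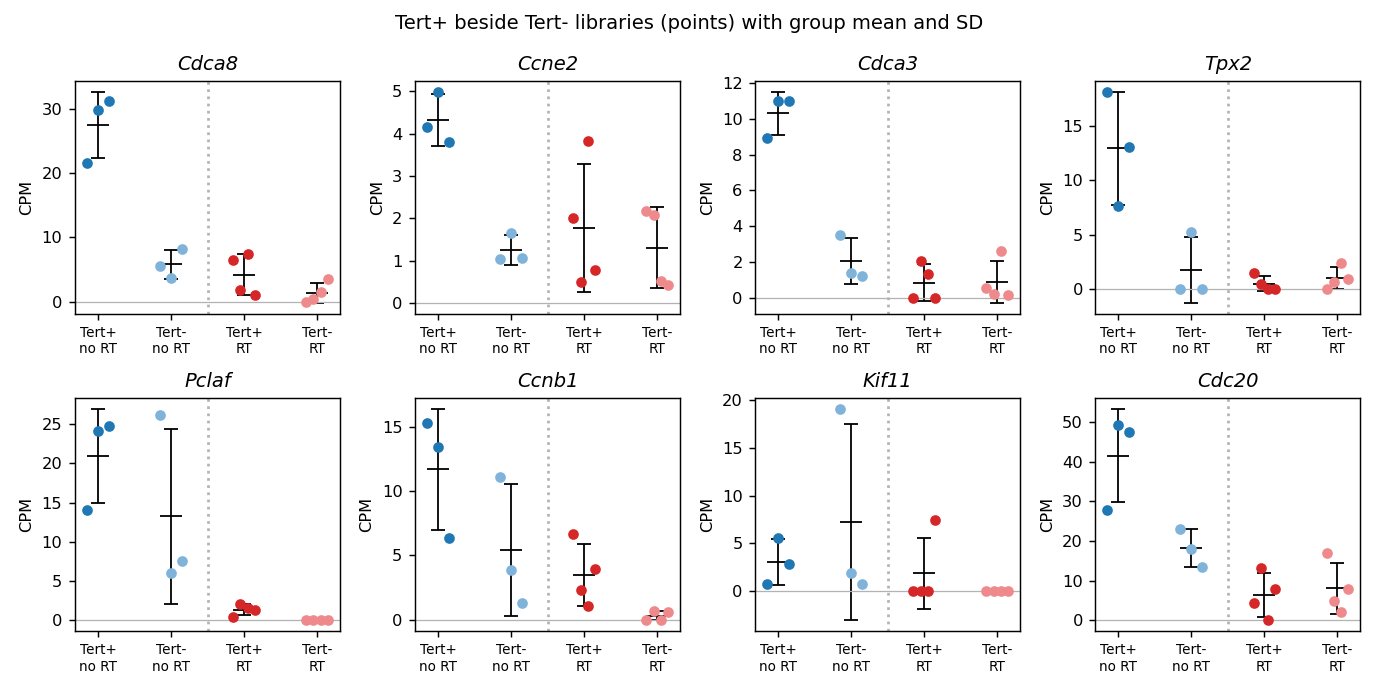
CPM of 8 genes in each Tert+ and Tert- library (points) with the group mean and SD (black), without RT left of the dotted line and after RT right of it. Cdca8, Ccne2, Cdca3, Tpx2 and Cdc20 are apart without RT and overlap after RT; Pclaf and Ccnb1 overlap without RT and are apart after it; Kif11 after RT is above 0 in 1 library.

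Other genes of the pathway were read from lists of known function. Of 26 further S phase genes tested, 4 were lower after RT in the mean of both populations and 0 higher (15.4% lower, against 7% of all genes), with a median log2 fold change of −0.35. Usp1, which deubiquitinates PCNA, fell by 0.51 ± 0.14 and Tipin of the replication fork by 0.97 ± 0.27 on the log2 scale. The repressor E2f8 had 0 counts in all 8 RT libraries and 82 without RT, at least 26.4-fold lower. It is 1 of 2 of these genes that passed the low-count filter only through the libraries without RT; of the other 24, 3 were lower. Of 34 further G2 and mitosis genes, 7 were lower and 0 higher (20.6% lower), with a median of −0.57. Kif2c, a microtubule depolymerase of centromeres, had 366 counts without RT and 0 after (at least 111-fold lower; edgeR adjusted p = 0.00151) and was also called in each population. Nuf2 of the outer kinetochore and Pimreg also had no count after RT, at least 53.4-fold and 20.8-fold lower. Kif2c, Nuf2 and Pimreg are 3 of 7 genes of this list that passed the filter only through the libraries without RT, so that a lower level was a condition of their being tested; of the other 27, 4 were lower (14.8%). Cks1b, a cyclin-dependent kinase subunit, fell by 1.34 ± 0.25, Jpt1 by 0.59 ± 0.10, Hmgb2, a chromatin protein, by 0.57 ± 0.15, and the nuclear envelope receptor Lbr by 0.45 ± 0.08. Nek2, a centrosomal kinase that did not pass, had 129 counts in Tert+ after RT and 0 in Tert-.

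Of 20 regulators of cell cycle transcription tested, 4 were lower and 0 higher in the mean of both populations (20% lower, against 7% of all genes). The D-type cyclin Ccnd2 was 114 to 204 CPM without RT and 58.5 to 198 CPM after it (−0.82 ± 0.17, edgeR adjusted p = 0.00725) and was also called in Tert-. Its partner kinase Cdk4 was 120 to 156 CPM without RT and 64.8 to 120 CPM after it (−0.70 ± 0.14, 0.00521). E2f4, the E2F of the DREAM complex, was 77.2 to 131 CPM and 50.1 to 88.0 CPM (−0.72 ± 0.15, 0.00685). Tfdp1, the dimer partner of E2F proteins, was 21.5 to 53.9 CPM and 7.36 to 31.4 CPM (−1.10 ± 0.30, 0.0244). The median over the 20 regulators was −0.10.

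The genes whose level followed that of Mki67 most closely over the 14 libraries included C3 (Pearson r of log2 CPM 0.878), Cd101 (0.878), Ncapg (0.874), Ntng2 (0.868), Gcsam (0.868), Klrc2 (0.861), Fam20c (0.857), Neil3 (0.856) and Clic4 (0.855). Of these Ncapg is a condensin subunit, Neil3 a DNA glycosylase and Gcsam a germinal centre marker. The libraries share the RT contrast and the depth that goes with it, and those named are among the 10 highest of all genes tested.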

How the data were processed

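The deposited table gives, per the file headers, raw read counts for each gene in 14 columns, with gene lengths; the aligner HISAT2 and the build mm10 are named in the submitters' processing notes, and the counting program, its strand setting and the annotation are not given in the sources used here. The fit used edgeR 4.0.16 under R 4.3.3: filterByExpr on the 4 groups, TMM scaling, 1 term per group over 14 libraries, robust quasi-likelihood F tests (two-sided) and Benjamini-Hochberg adjustment over 15915 genes, with a threshold of 0.05. CPM is edgeR's counts per TMM-scaled library total. SEs are fold changes divided by the root of F. Of 7 contrasts, 2 are means, over both populations or over both states. For a gene at 0 in a group, folds are bounds from 3 counts over the group, and intervals are exact 95% Clopper-Pearson; both cover counting error alone, as PCR copies cannot be told from molecules here. The fit was tested on simulated data. Alternatives were DESeq2 1.42.0, limma 3.58.1 (voom), RLE scaling, no filter, the compared groups alone, replicate blocks and left-out libraries. Members, phases, marker lists and tests were chosen with earlier results of these data known. Genes were named by rule: members past the threshold, the 3 of smallest p per contrast, and the 3 S phase and 3 mitotic ones of highest mean CPM; of other lists, those past the threshold or the 2 of highest level. Other members and genes named by count or range lie outside that rule. Some genes that the lists or the naming rule select are not reported by name here.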

Additional observations from a re-analysis of the deposited data

Results flagged for a closer look

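In each group of 4 RT libraries, a member's level was flagged where the highest or lowest library lay far from its nearest neighbour relative to the group's range (Dixon's test at 95%). Of 80 groups checked, 12 were flagged. The 95% level holds for normally spread values, which levels at or near 0 are not, so the number of flags expected here is not known. A library above 0 is always flagged where the others are at 0. In Tert+ after RT the flagged levels were Cdc6 in replicate 3 (1.91 CPM, the others at 0), Ccna2 in replicate 2 (2.91 CPM, the others at 0), Ube2c in replicate 2 (0.485 CPM, the others at 0), and, in replicate 4, Plk1 (1.8 CPM, next 0.136), Aurka (23.1 CPM, next 8.63) and Kif11 (7.44 CPM, the others at 0). In Tert- after RT they were, in replicate 1, Pcna (151 CPM, next 112), Plk1 (3.08 CPM, next 0.173) and Ube2c (1.63 CPM, next 0.132), then Cenpf in replicate 2 (1.17 CPM, next 0.0863), Cdca3 in replicate 3 (2.64 CPM, next 0.544) and Birc5 in replicate 4 (0.949 CPM, next 0.132). All 12 were high rather than low values, and 10 of the 12 were mitotic genes. Levels cannot go below 0, so genes near it have little room for a low flag.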

How the results depend on the processing

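The number of members called for RT in Tert+, 3, became 9 with DESeq2, 11 with voom and 0 without Tert+ RT replicates 3 and 4, and ran from 0 to 4 when 1 library was left out. The share of all genes called moved as well. It was 1.98% there in the main fit, 6.8% with DESeq2, 3.03% with voom and 0.317% without those replicates. For RT in Tert-, 2 became 13 with DESeq2, 4 without a filter, 1 with only the groups compared, 6 without Tert+ RT replicates 3 and 4, and 4 without Tert- no RT replicate 1 and Tert+ RT replicate 4 (chosen after seeing the data), with 1 to 5 over left-out libraries. The share of all genes was 1.62% in the main fit and, in the same order of settings, 8.73%, 1.12%, 0.613%, 1.51% and 5.66%. For RT in the mean of both, 17 became 11 under a replicate block, and left-out libraries gave 11 to 17. The replicate block called 10.2% of all genes there, against 13.4% in the main fit. Tert+ against Tert- after RT had 0, but 3 with DESeq2 and 1 without a filter, where 0.688% and 0.015% of all genes were called. Its mean over both states had 0, but 2 with DESeq2, 1 without a filter and 1 in the setting chosen after seeing the data. Those settings called 1.02%, 0.183% and 0.188% of all genes. Left-out libraries gave 0 to 1 member in that mean. The interaction had 0, and 1 with DESeq2, which called 0.0758% of all genes.

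The S phase minus mitotic difference of median log2 fold changes was 1.49 in Tert+ after RT (1.28 to 1.75 over left-out libraries), but 2.35 with voom and 1.95 under the replicate block, 0.71 in Tert- (0.415 to 1.087 over left-out libraries), and 1.43 in the mean of both, but 1.90 with voom. For Tert+ against Tert- without RT it was −0.37 and ran from −1.098 to −0.024 over left-out libraries. The value of −1.098 came without Tert- no RT replicate 1 alone, and leaving out Tert+ RT replicate 4 as well gave −1.099. For the interaction it was −0.29, but 0.41 with voom, 0.31 under the replicate block, 0.30 under the block within RT state and 0.53 in the setting chosen after seeing the data, with −0.71 to 0.48 over left-out libraries; its sign rests on the setting. Kif11's interaction turned to −1.17 in that last setting. The cause of these moves was not tested. Of the other values of named members, 645 kept their side of the threshold, 90 lost and 17 gained a call. Deviations of same-numbered libraries correlated at −0.104 to 0.188. Between Tert+ and Tert- the correlations were 0.027 to 0.188 without RT and −0.024 to 0.067 after RT. The lowest value, −0.104, was between Tert+ libraries without and after RT. Values for differently numbered libraries are not given here, so whether replicate numbers pair the libraries was not tested. The main fit has no term for such pairs. DESeq2 gave no adjusted p for 2 members in Tert-. Depth limits the lowest mitotic genes, since 3 counts are 0.19 to 0.544 CPM.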

Other observations

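In the mean of both populations 7% of all genes were called lower after RT and 6.36% higher. Of the other cell type lists, 2 of 6 plasma cell markers tested were lower in that comparison, Jchain (−4.58 ± 0.86 log2, edgeR adjusted p = 0.00549) and Xbp1 (−0.73 ± 0.14, 0.00392), and 1 was higher, Irf4 (0.75 ± 0.22, 0.0365). Of 8 macrophage markers, 2 were lower, Csf1r (−1.81 ± 0.40, edgeR adjusted p = 0.0112) and Cd68 (−0.92 ± 0.27, 0.0339). Of 8 acinar genes 2 were lower, Lpo (−4.86 ± 1.37, edgeR adjusted p = 0.0389) and Mucl2 (−4.45 ± 1.01, 0.0165). In Tert+ both were high in no RT replicate 1. Lpo was 243, 0.253 and 0.835 CPM there without RT and 3.83, 0.323, 2.18 and 0.428 after it. Mucl2 was 81800, 920 and 1580 CPM, and 2000, 735, 723 and 314 after RT. Their Tert+ groups overlapped and their Tert- groups did not. The T cell kinase Lck fell by 0.91 ± 0.21 on the log2 scale (edgeR adjusted p = 0.0121). Of 8 epithelial markers and 6 granular duct genes, 0 were called by edgeR, with 1 and 0 at an unadjusted p under 0.05.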
